A study of Mus musculus with 6 samples.

Results

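Of the loci that the study named for ZBTB43 binding, 5 carried an IgG-controlled ChIP–seq peak over an alternating purine–pyrimidine tract of over 200 bp: Shq1, Tshz2, Cngb3, Mxi1 and Dhx35. They were chosen by the peaks of this same experiment and by the length of the tract under them, so both are given as a description and neither was tested. Each locus was the gene and 10 kb on each side, and every peak of the 4 deposited lists that overlapped such a window was taken. This gave 25 of the 3588 listed peaks, in which the same site counts once per list. The 5 genes were among 1145 protein-coding genes with a peak of any list in or within 10 kb of the gene. The strongest peak of each member held a tract of 259 to 423 bp. Among the 12 other loci of the study examined in the same way, 9 had an IgG-controlled 491K peak, and the longest tract at the strongest peak of each was 21 to 101 bp. The longest tract was thus shortest at Mxi1 among the members, with 259 bp, and longest at Gpr160 among the 9 others, with 101 bp.

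ChIP–seq was done by the authors on prospermatogonia, the male germ cells of the foetal testis, at 15.5 days post coitum (dpc). The foetuses were male and wild type, of the strain labelled B6;CBA-Tg(Pou5f1-EGFP)2Mnn/J, and their germ cells were sorted by the EGFP that this Pou5f1 (Oct4) reporter transgene drives. One library each was made with a ZBTB43 antibody from 491K and from 100K cells, where K is 1000 cells, with non-specific IgG from 415K and 100K cells, and from input chromatin of 491K and 100K cells. Peaks of the ZBTB43 library of each cell number were called against its IgG and against its input, giving lists of 897 (IgG 491K), 2043 (input 491K), 18 (IgG 100K) and 630 peaks (input 100K). The study's text gives fewer input-controlled peaks than the deposited input 491K list holds, and the reason is not known here. The study describes its ChIP–seq as done in independent duplicates, but the ZBTB43 libraries differ in cell number and in handling. Per the methods, the larger sample was crosslinked as combined batches of frozen cells and sonicated in several tubes. The smaller one was crosslinked before it was frozen. Cell number and handling cannot be told apart in any difference between 491K and 100K lists. The ZBTB43 libraries were therefore kept apart as groups of 1 library, and no difference below has a replicate error. Per the methods, testes of several foetuses were dissociated together. Both lists of a cell number share the ZBTB43 library, so they are not independent. Peak lists hold no expression values, so the identity of the cells was not checked here, and they do not give the number of reads kept in each library. The study states only a minimum sequencing depth common to its libraries.

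ZBTB43 is a transcription factor with a BTB domain and zinc fingers. In an alternating tract, also called a purine–pyrimidine repeat, every purine is followed by a pyrimidine and every pyrimidine by a purine, as in runs of CA, TG or CG. Such DNA can flip from the right-handed B form into the left-handed Z form under torsional stress, and runs of CG do so most readily. CpG, a C followed by a G, is also the main site of DNA methylation in mammals, which male germ cells lay down anew around this stage.

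The tracts at the member peaks were CA/TG repeats interspersed with CpG. Those of Shq1, Cngb3 and Mxi1 are shown first because their composition is what the comparisons below turn on. The choice by length did not use composition. The study also displayed these loci for lower methylation in mutant sperm, which needs CpG, so their composition is not free of how they were named. All sequences are the plus strand of mm10 (GRCm38), the C57BL/6J reference. The foetuses were partly of CBA descent, and repeat lengths in them were not measured here. CpG is in capitals. For Cngb3, 300 bp of the tract are given, centred on the IgG-controlled 100K peak. For Shq1, where the tract is annotated as untranslated sequence, 30 bp at the centre of the IgG-controlled 100K peak are given.
Shq1, chr6:100571221-100571250: aCGcacacacacacaCGcacacacacacat
Cngb3, chr4:19490202-19490501: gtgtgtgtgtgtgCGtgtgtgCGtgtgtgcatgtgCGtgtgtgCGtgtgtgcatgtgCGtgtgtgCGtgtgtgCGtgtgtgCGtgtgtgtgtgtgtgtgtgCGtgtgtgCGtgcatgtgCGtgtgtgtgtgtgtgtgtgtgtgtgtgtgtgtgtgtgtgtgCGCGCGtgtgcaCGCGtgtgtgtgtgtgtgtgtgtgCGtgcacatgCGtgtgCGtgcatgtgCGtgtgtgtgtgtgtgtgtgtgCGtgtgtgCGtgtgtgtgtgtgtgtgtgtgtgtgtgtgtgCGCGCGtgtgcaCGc
Mxi1, chr19:53349280-53349538: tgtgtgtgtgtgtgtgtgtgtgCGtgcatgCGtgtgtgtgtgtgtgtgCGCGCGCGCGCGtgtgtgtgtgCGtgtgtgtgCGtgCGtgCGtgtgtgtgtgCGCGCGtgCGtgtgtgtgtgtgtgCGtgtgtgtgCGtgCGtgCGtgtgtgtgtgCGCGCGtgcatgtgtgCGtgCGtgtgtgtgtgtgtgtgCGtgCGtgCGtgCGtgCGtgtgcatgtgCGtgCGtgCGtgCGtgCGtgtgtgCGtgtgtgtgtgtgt

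Shq1 read as a CA repeat on the plus strand, and Cngb3 and Mxi1 as TG repeats, the same repeat read from the other strand. In all 3 the runs of CA or TG were broken by CpG at short intervals. Mxi1 also held a run of 6 CpG in tandem.

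All 5 members had a peak in both 491K lists, and Shq1, Tshz2, Cngb3 and Mxi1 also had one in both 100K lists. The members were chosen on these peaks, so nothing follows from the counts. Over all 21938 protein-coding genes, the share with a peak within the same distance was 2.49% in the IgG 491K list, 5.16% in the input 491K list, 0.0547% in the IgG 100K list and 1.65% in the input 100K list. The IgG 491K list held 7 peaks in the 5 windows and the input 491K list 9. The IgG 100K list held 4 peaks there and the input 100K list 5. The strongest IgG 491K peak of each member marks its main site, at which the input 491K peak and any IgG 100K peak also lay. The other peaks lay in the windows of Tshz2 and Cngb3. The scores below are as deposited and were read as 10 times the −log10 of the q-value of the peak caller. They were ranked within a list only, since each list has its own library or control.

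Shq1 encodes an assembly factor of H/ACA ribonucleoproteins, the particles that guide pseudouridylation of RNA. Its site was the only one of the 5 in an annotated exon, and this rests on 1 GENCODE transcript, the longest of the gene. In that transcript it lay in the 3′ untranslated region, in exon 11, with the nearer end of the IgG 491K peak 1533 bp beyond the stop codon. The RefSeq annotation of the same assembly places no gene there, and the study describes its Shq1 region as downstream of the gene. The IgG 491K peak, chr6:100570846-100571735, was 890 bp wide with a score of 1173, rank 18 of 897. The input 491K peak, chr6:100570828-100571729, was 902 bp wide with a score of 1534, rank 106 of 2043. The IgG 100K peak, chr6:100571081-100571391, was 311 bp wide and ranked first of 18 with a score of 181. The input 100K peak, chr6:100571014-100571433, was 420 bp wide with a score of 259, rank 189 of 630. Shq1 was therefore near the top of both IgG-controlled lists and in the upper part of both input-controlled lists. Its 423-bp tract, chr6:100571021-100571443, contained the whole IgG 100K peak. The tract was one of 5 at the site, of which 4 followed each other with a single breaking base between them and made up an array of 653 bp.

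Tshz2 encodes a teashirt-type zinc finger protein. Its site lay in the intron of both annotated transcripts that span it, 124999 bp upstream of the next exon. The IgG 491K peak, chr2:169944549-169945268, was 720 bp wide with a score of 1211, rank 16 of 897, the highest rank of the 5 members in that list. The input 491K peak, chr2:169944466-169945271, was 806 bp wide with a score of 1533, rank 108 of 2043. With 100K cells the peaks were 211 bp wide against IgG, chr2:169944795-169945005, and 456 bp wide against input, chr2:169944656-169945111. Their scores were 80 (rank 2 of 18) and 153 (rank 302 of 630). The site held tracts of 274 and 225 bp parted by 1 base, and the IgG 100K peak spanned the base that parted them.

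Cngb3 encodes the beta subunit of the cyclic nucleotide-gated channel of cone photoreceptors. Its site lay in intron 15 of 17. The IgG 491K peak, chr4:19490199-19490676, was 478 bp wide with a score of 432, rank 109 of 897, and the input 491K peak, chr4:19490199-19490685, was 487 bp wide with a score of 733, rank 302 of 2043. Both began at the first base of the 375-bp tract, chr4:19490199-19490573, and ended 103 and 112 bp beyond its last base. The 100K peaks lay wholly inside that tract. The IgG 100K peak, chr4:19490259-19490444, was 186 bp wide with a score of 34, rank 12 of 18, and the input 100K peak, chr4:19490216-19490461, was 246 bp wide with a score of 116, rank 367 of 630. Cngb3 had the lowest score of the 4 members in the IgG 100K list.

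Mxi1 encodes a MAX-interacting repressor that opposes MYC. Its site, in intron 3 of 5 of 6 transcripts, held the widest peaks of the members in 3 of the 4 lists. The IgG 491K peak, chr19:53348622-53349692, was 1071 bp wide with a score of 1184, rank 17 of 897. The input 491K peak, chr19:53348622-53349759, was 1138 bp wide with a score of 1894, rank 80 of 2043. Under them lay 6 tracts of 123, 81, 133, 91, 77 and 259 bp, in this order, each parted from the next by 1 base, an array of 769 bp. Both 100K peaks were narrower than the 491K peaks. The IgG 100K peak, chr19:53348947-53349085, was 139 bp wide with a score of 51, rank 8 of 18. The input 100K peak, chr19:53348918-53349467, was 550 bp wide with a score of 103, rank 417 of 630. The IgG 100K peak did not touch the longest tract but lay on the 81- and 133-bp tracts. The latter is shown here because it is the only instance among the members in which the IgG 100K peak lay off the longest tract, and it held a run of 8 CpG in tandem.
Mxi1 under the IgG 100K peak, chr19:53348976-53349108: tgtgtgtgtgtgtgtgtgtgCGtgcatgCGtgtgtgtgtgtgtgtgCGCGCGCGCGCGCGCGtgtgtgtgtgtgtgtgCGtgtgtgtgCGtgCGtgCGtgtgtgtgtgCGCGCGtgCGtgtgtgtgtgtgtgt

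Dhx35 encodes a DEAH-box RNA helicase. Its site, in intron 14 of Dhx35-201, was 1028 bp upstream of the next exon and had the narrowest 491K peaks of the 5 and the lowest scores. The IgG 491K peak, chr2:158839146-158839522, was 377 bp wide with a score of 284, rank 182 of 897. The input 491K peak, chr2:158839146-158839500, was 355 bp wide with a score of 289, rank 749 of 2043. The 362-bp tract made up 96.0% of the IgG 491K peak, whose ends lay 4 and 11 bp outside it. Neither 100K list held a peak in this window. Since a list gives only what passed its q-value threshold, this does not show that the site was unbound in the smaller sample.

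**Figure D1:**
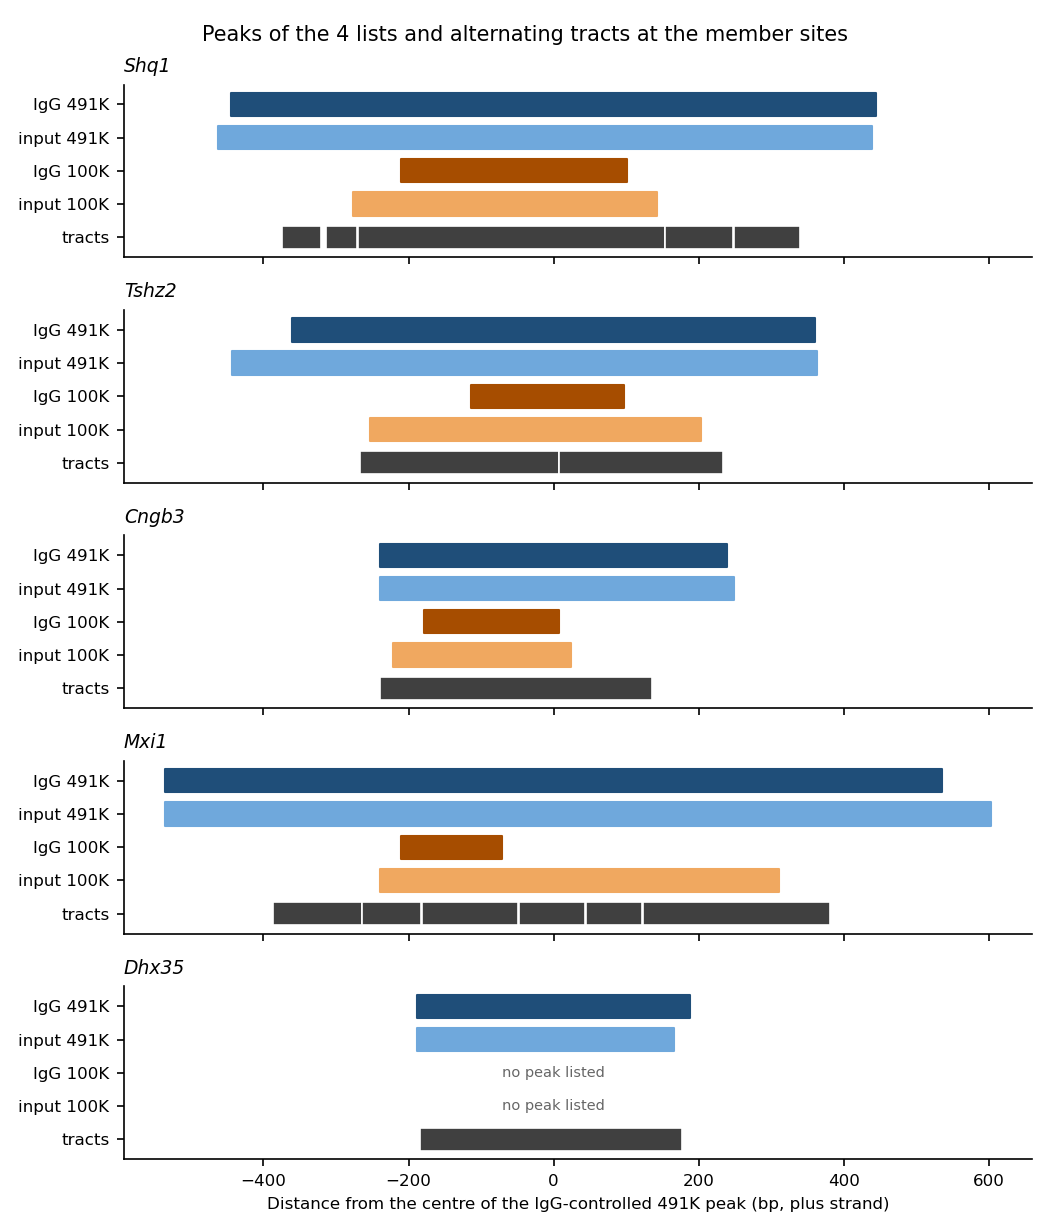
Peaks of the 4 lists (coloured bars) and alternating tracts of at least 20 bp (dark bars) at the strongest site of each member, against the distance in bp from the centre of the IgG-controlled 491K peak on the plus strand. Each 100K peak lay inside the 491K peaks, over the tracts, and at Dhx35 no 100K peak was listed.

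The input 491K peak covered 94.2% to 100% of the IgG 491K peak at the 5 sites. All 8 peaks of the 100K lists at the 4 sites lay wholly within the IgG 491K peak. The IgG 100K peaks spanned 34.9% of its width at Shq1, 29.3% at Tshz2, 38.9% at Cngb3 and 13% at Mxi1. The input 100K peaks spanned 47.2% at Shq1, 63.3% at Tshz2, 51.5% at Cngb3 and 51.4% at Mxi1. At each of the 4 sites the IgG 100K peak was thus the narrowest. Under a reciprocal overlap of at least 50%, none of the 4 IgG 100K peaks was counted as shared with the IgG 491K list. Alternating tracts made up 69.3% to 96.0% of the IgG 491K peaks at the 5 sites, the 491K peaks reaching into other sequence on one or both sides. They made up 99.3% to 100% of the IgG 100K peaks and 99.3% to 100% of the input 100K peaks at the 4 sites.

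Among the 5 members, the sites with several adjoining tracts had the higher scores in both 491K lists. In the IgG 491K list, Tshz2 (1211), Mxi1 (1184) and Shq1 (1173), with arrays of 500, 769 and 653 bp, were above Cngb3 (432) and Dhx35 (284), with single tracts of 375 and 362 bp. The same 3 sites were above the same pair in the input 491K list. In the IgG 100K list, Mxi1 (51) remained above Cngb3 (34), but in the input 100K list Mxi1 (103) was below Cngb3 (116). With 5 sites and 1 library per cell number this order was not tested. It held among the members only. The strongest IgG 491K peaks of the 9 other loci, with longest tracts of 21 to 101 bp, scored 522 to 2114 (ranks 6 to 90). All of these were above Cngb3 and Dhx35, and the highest was above every member.

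**Figure D2:**
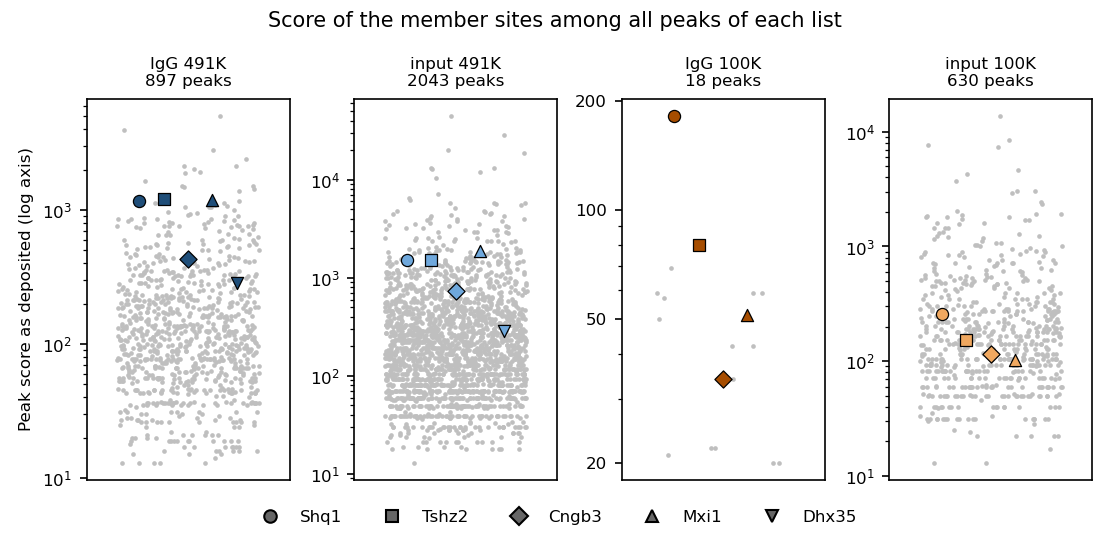
Deposited score of the strongest site of each member (symbols) among all other peaks (grey points) in each list, with a log axis of its own for each list. All members sat in the upper part of the IgG 491K list, with Shq1, Tshz2 and Mxi1 above Cngb3 and Dhx35. Shq1 and Tshz2 ranked first and second in the IgG 100K list, and Dhx35 had no symbol in either 100K list.

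The members shared a high CpG content. In an alternating tract each step from a pyrimidine to a purine is CpG, CpA or TpG, or TpA. Of these steps in the longest tract, 25.6% were CpG at Shq1 (54 of 211), 25.7% at Tshz2 (35 of 136), 17.6% at Cngb3 (33 of 187), 27.9% at Mxi1 (36 of 129) and 30.4% at Dhx35 (55 of 181). TpA was rare, at 0 to 3 steps per tract. The median over all 816 tracts of at least 200 bp in the genome was 0% CpG, the 75th percentile 2.12%, and 7.60% of them exceeded 15%. In the 9 other loci of the study with an IgG 491K peak, 4 of the longest tracts held any CpG, at most 10.6% of steps. The study also displayed the 5 members for lower DNA methylation in sperm of Zbtb43 mutant mice, which only a site with CpG can show. Their CpG content is therefore not independent of the way they were named. It named Pdzd2 with them, which is counted here among the 9 other loci and gave the 10.6%.

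Among the peaks themselves, the IgG 491K peak held 76 CpG at Shq1, 64 at Tshz2, 34 at Cngb3, 91 at Mxi1 and 55 at Dhx35, against a median of 0 over the 897 peaks. In CpG per 100 bp of peak these were 8.54, 8.89, 7.11, 8.50 and 14.6, in the same order, ranks 36, 32, 53, 38 and 2 of 897. Dhx35 had the highest CpG density of the members and the lowest score. The G and C content of these peaks was 55.1% to 65.0%. Tracts in the part of each site under the IgG 100K peak had 13.5 CpG per 100 bp at Shq1, 13.8 at Tshz2, 8.60 at Cngb3 and 13 at Mxi1. Tracts in the rest of the site had 8.16, 11.1, 8.99 and 11.3 in the same order, so that the part under the 100K peak was denser at 3 of 4 sites and slightly sparser at Cngb3.

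In the Tshz2 and Cngb3 windows there were also peaks away from the main site. In the IgG 491K list Tshz2 had peaks at chr2:169756794-169757109 (score 36, rank 782 of 897) and chr2:169986344-169986838 (score 258, rank 199). The former, which also lies in the antisense transcript gene Gm26883, had a score near the lower end of its list. Both recurred in the input 491K list, with scores of 99 and 455, and that list alone held another at chr2:169935931-169936074 (score 172). Cngb3 had a second input-controlled peak 1388 bp upstream of the gene, chr4:19279273-19279461 with 491K cells (score 348) and chr4:19279302-19279434 with 100K cells (score 82), and none against IgG. None of the 3 further Tshz2 peaks was in a 100K list. The longest tract at each of these peaks was 35 to 50 bp, and of their 14 tracts 13 held no CpG. Alternating tracts made up 59.5% of the IgG 491K peak at chr2:169756794-169757109 but 7.07% of that at chr2:169986344-169986838, which lay mostly in other sequence. They made up 56.9% of the Tshz2 peak found against input alone and 46.0% of the further Cngb3 peak with 491K cells. The longest tract at each peak is shown to set it against the main sites above.
Tshz2, chr2:169756791-169756835: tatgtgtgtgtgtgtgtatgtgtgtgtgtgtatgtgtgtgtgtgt
Tshz2, chr2:169935926-169935975: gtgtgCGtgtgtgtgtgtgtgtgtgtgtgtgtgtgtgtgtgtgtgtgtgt
Tshz2, chr2:169986727-169986761: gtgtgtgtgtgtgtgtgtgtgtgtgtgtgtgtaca
Cngb3, chr4:19279291-19279327: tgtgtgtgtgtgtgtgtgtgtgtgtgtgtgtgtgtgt

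These were mainly TG repeats, 1 of them with a single CpG and others with TpA. Outside the windows, the nearest IgG 491K peak was 145 kb away at Tshz2, 301 kb at Cngb3, 557 kb at Dhx35, 579 kb at Mxi1 and 707 kb at Shq1, so that no further peak lay close to a window edge.

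Most alternating tracts of the windows had no peak. Of 384 tracts of at least 20 bp, 23 (5.99%) touched an IgG 491K peak, 29 (7.55%) an input 491K peak, 6 (1.56%) an IgG 100K peak and 13 (3.39%) an input 100K peak. Over all 586442 such tracts of the genome the shares were 0.54%, 0.94%, 0.00512% and 0.285%, in the same order. The members had been chosen for such a peak, and tracts that adjoin share one, so the shares of the windows are a description. The 15 tracts at the main sites had a median length of 123 bp and a median CpG share of 21.7%. The 355 tracts with no 491K peak had a median of 31 bp and 0%. All 6 tracts of at least 200 bp in the windows were at the main sites. The longest tract with no 491K peak, 174 bp in Tshz2, alternated throughout but was made of CA/TG and TA without any CpG.

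CpG was not found at peaks alone. Of the 355 tracts with no 491K peak, 96 held CpG, and 25 had it at over 15% of steps, all of 81 bp or less. The median length of these 25 was 29 bp, and 6 of them were at least 50 bp long. By length only the longest, of 77 to 81 bp, overlapped the shorter tracts of the Mxi1 array. Those were 77 to 133 bp long with 15.0% to 27.3% CpG. One tract of 77 bp in Tshz2 held 8 tandem units of CACG, the most in the windows. One of 66 bp in Shq1 held 8 CpG in tandem, as many as the Mxi1 tract under the 100K peak. These examples were chosen after their values were seen. They are shown with the longest tract that had no 491K peak because their CpG shares lay within the range of the main sites.
Tshz2, longest with no 491K peak, chr2:169835679-169835852: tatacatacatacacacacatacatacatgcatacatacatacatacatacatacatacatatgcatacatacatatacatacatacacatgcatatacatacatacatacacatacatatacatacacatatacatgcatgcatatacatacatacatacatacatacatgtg
Tshz2, 25.0% CpG, no 491K peak, chr2:169776752-169776832: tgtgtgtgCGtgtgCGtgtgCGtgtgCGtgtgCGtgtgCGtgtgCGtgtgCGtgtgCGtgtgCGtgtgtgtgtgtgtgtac
Tshz2, 26.3% CpG, no 491K peak, chr2:169762233-169762309: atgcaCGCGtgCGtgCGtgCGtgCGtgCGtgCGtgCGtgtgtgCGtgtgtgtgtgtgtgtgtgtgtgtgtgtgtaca
Shq1, 28.1% CpG, no 491K peak, chr6:100640109-100640174: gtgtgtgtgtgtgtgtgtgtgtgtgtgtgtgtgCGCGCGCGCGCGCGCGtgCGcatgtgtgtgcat

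**Figure D3:**
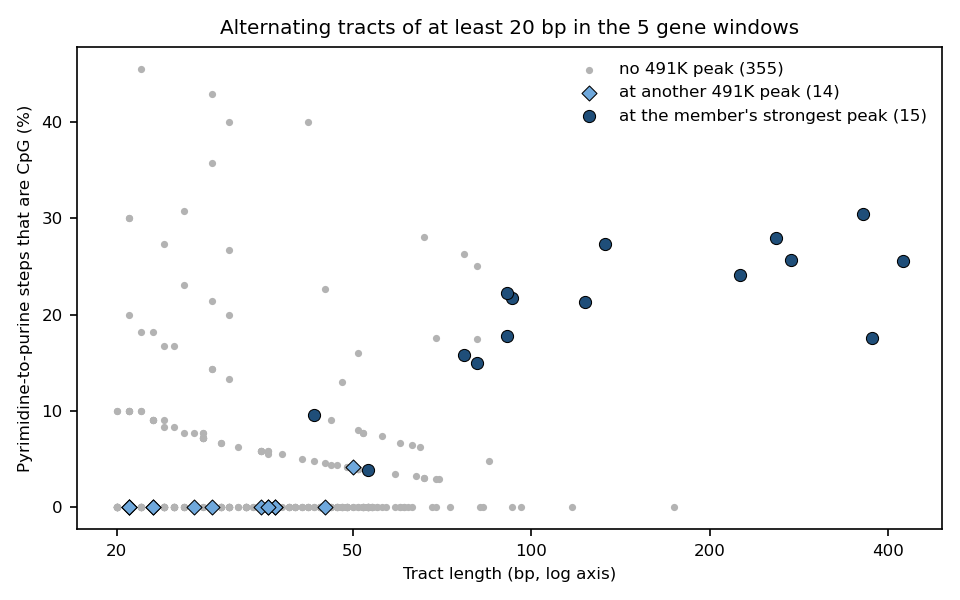
Length in bp (log axis) and share of pyrimidine-to-purine steps that are CpG, in %, for the 384 alternating tracts of at least 20 bp in the 5 gene windows. The tracts at the main sites (dark blue) reach from 43 to 423 bp and all hold CpG, the tracts at other 491K peaks (light blue diamonds) are short with little or none, and the 25 tracts with no peak (grey) above 15% CpG are at most 81 bp long.

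To see whether long tracts with CpG were found in peaks elsewhere too, the 6 long tracts of the members were left out and the remaining 810 tracts of at least 200 bp in the genome were grouped by CpG share. These tracts were not used to choose the members. Of the 56 with CpG at over 15% of steps, 35 touched an IgG 491K peak (62.5%, 95% Wilson interval 49.4% to 74.0%) and 48 an input 491K peak (85.7%, 74.3% to 92.6%). Of 427 tracts with no CpG, 70 touched an IgG 491K peak (16.4%, 13.2% to 20.2%) and 94 an input 491K peak (22.0%, 18.3% to 26.2%). The 327 tracts with CpG at up to 15% of steps were close to the latter, at 19.6% (15.6% to 24.2%) and 28.4% (23.8% to 33.6%). The interval of the CpG-rich class did not overlap those of the other classes in either 491K list. In the IgG 100K list, 4 of the 56, 1 of the 327 and none of the 427 touched a peak. In the input 100K list the shares were 33.9% (22.9% to 47.0%), 11.9% (8.85% to 15.9%) and 6.56% (4.58% to 9.31%), in order of falling CpG. The intervals cover counting error only, for tracts that all share the same libraries, and adjoining tracts can share a peak.

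The classes were similar in length, with median lengths of 266.5, 258 and 254 bp. From 200 to under 300 bp, 19 of 40 CpG-rich tracts touched an IgG 491K peak (47.5%, 32.9% to 62.5%) against 33 of 303 without CpG (10.9%, 7.86% to 14.9%). From 300 to under 500 bp these were 10 of 10 and 30 of 104 (28.8%, 21.0% to 38.2%). Among tracts of 100 to under 200 bp the shares were lower throughout, at 5.87% (3.97% to 8.58%) of 409 CpG-rich tracts and 1.57% (1.27% to 1.95%) of 5150 without CpG. From 50 to under 100 bp they were 0.626% of 7030 and 0.281% of 78306. From 20 to under 50 bp they were 0.537% of 19911 and 0.544% of 369489, so that the CpG-rich share was no longer the higher. The longest tracts of the 5 members fell in the class, of those examined here, that was most often in a 491K peak. Still, 21 of the 56 other CpG-rich tracts of their length class were not in the IgG 491K list. That the members fell in this class is not an independent result, since the 15% cut was set after tract composition was seen. The cut lies below the lowest CpG share of their longest tracts, 17.6% at Cngb3. The members were also chosen by their 491K peaks.

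How well reads can be placed in a tract also moved with CpG. In all 56 CpG-rich tracts, and in all 6 long tracts of the members, every stretch of 150 bp, the read length of the study, occurred once among the alternating tracts of the assembled chromosomes on either strand. This held for 343 of the 427 tracts without CpG. Restricted to tracts in which every such stretch was unique, 58 of 343 without CpG (16.9%, 13.3% to 21.2%) touched an IgG 491K peak, against 35 of 56 (62.5%, 49.4% to 74.0%). Copies that differ by a few bases were not counted, and their part in the difference was not tested, nor was that of G and C content.

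**Figure D4:**
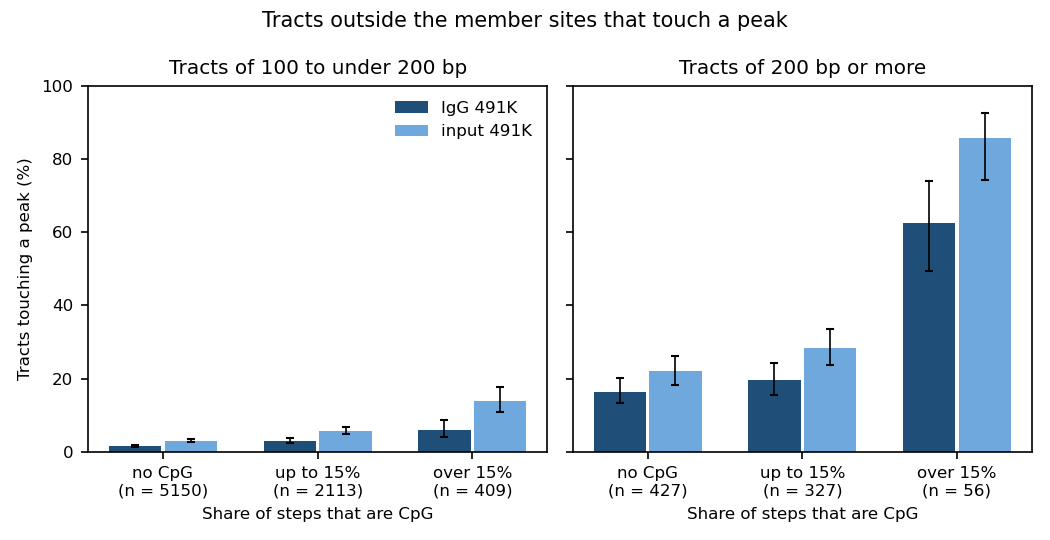
Share of alternating tracts outside the member sites that touch a 491K peak, in %, by CpG share of their pyrimidine-to-purine steps, for tracts of 100 to under 200 bp and of 200 bp or more. Bars give the share and whiskers the 95% Wilson interval, with the number of tracts under each pair of bars, and the CpG-rich tracts of 200 bp or more stand highest at 62.5% and 85.7%.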

How the data were processed

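Per the methods and the submitters' processing notes, the authors trimmed the paired reads (Trim Galore 0.6.0), aligned them to mm10 (BWA 0.7.17), kept 1 copy of duplicates and only proper pairs of high mapping quality, and called peaks with MACS2 2.2.7.1 at a q-value of 0.05, setting a ZBTB43 library against the IgG or the input library made for it (IgG from 415K cells for the larger one). Blacklisted peaks were then removed. The mapping quality filter can remove fragments inside repeats. The 4 peak lists deposited by the authors give a score per peak and no fold enrichment or count of the reads kept. Windows were the GENCODE M21 gene and 10 kb on each side. Alternating tracts of at least 20 bp were found on the assembled chromosomes of GRCm38.p6, and peaks and tracts were joined where they shared at least 1 bp, with Python 3.11.15, NumPy 2.4.6, pandas 2.3.3 and SciPy 1.17.1. On simulated data, all 200 planted tracts were found with their exact ends. Members, the loci compared with them and the windows were chosen with earlier results of these data known, and the CpG classes (none, up to 15%, over 15%) after tract composition was seen. Named loci were the 5 members, with the 12 others as counts and ranges. No test was made, since each group held 1 library and the members were chosen on these peaks. Signal tracks were not used here, and the sequences of some tracts are not reported here.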

Additional observations from a re-analysis of the deposited data

How the results depend on the processing

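The counts of members with a peak and of peaks in the windows stayed within 1.5 times their value in all 4 lists with a q-value threshold of 0.01, with the gene body alone and with 50 kb on each side. Reciprocal overlap of at least 50% left 0 of the 4 IgG 100K peaks shared with the IgG 491K list, since these peaks were narrower. A minimum tract length of 30 bp left 219 of 384 tracts in the windows, and 50 bp left 85. At 50 bp the tracts touching an IgG 491K or an input 491K peak fell to 14 and 15, and the share touching a peak rose to 16.5% and 17.6% in the 491K lists (IgG and input) and to 7.06% and 10.6% in the 100K lists, because shorter tracts, most without a peak, were left out. Joining runs across 1 base lengthened the longest tract to 653 bp at Shq1, 500 bp at Tshz2 and 769 bp at Mxi1. Ranked by width, Mxi1 was the highest of the members in the IgG 491K list (19 of 897), and the lowest in the IgG 100K list (17 of 18). For the long tracts outside the member sites, splits at 10% and 20% CpG, chosen after seeing the data, left the IgG 491K shares of the CpG-rich class within the interval given. At a minimum of 300 bp, also chosen then, 16 of 16 CpG-rich tracts and 37 of 124 without CpG (29.8%) touched an IgG 491K peak. With the split at 20%, the longest tract of Cngb3, with CpG at 17.6% of steps, would not be in the CpG-rich class. No paired analysis was possible because no test was made and each list already sets a ZBTB43 library against its control. The reads kept in each library are not in the lists, so absence from a 100K list is not evidence of absent binding.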
